A study of Saccharomyces cerevisiae with 59 samples.

Results

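This comparison set the G1 that directly follows release from α-factor against the G1 that comes 1 cell cycle later. In every deposited table the column of aligned time 10 min was compared with the column of 70 min, over all 5590 genes listed. The members are therefore all 5590 of 5590 genes, and 8 of the 59 libraries of the series. Budding yeast cells were held in G1 by the mating pheromone α-factor, washed free of it and sampled through consecutive cell cycles. Total RNA was sequenced, and chromatin of crosslinked cells was digested with micrococcal nuclease (MNase) and sequenced. The RNA and the MNase values at each of these times rest on 2 biological replicates each, which the authors aligned by cell-cycle progression and merged. The 10 min column joins the library labelled 20 min of Replicate 1 with that labelled 10 min of Replicate 2, and the 70 min column joins those labelled 80 min and 70 min.

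Both times come from the same strain and, within each replicate, from a single time course, so that neither is an untreated control of the other. The strain is a MATa strain of the W303 background with BAR1::TRP and URA3::BrdU-Inc, which carries ade2-1, his3-11,15, can1-100 and a leu2 allele, grown in YPD. BAR1 encodes the protease that degrades α-factor, and its RNA value was 2.5 at 10 min and 3.12 at 70 min. The 2 times differ in when the cells last met α-factor and in whether they had passed through mitosis since. They also differ in the time since the cells were washed in water and moved to fresh YPD. The paper also reports a gradual loss of synchrony by the second cycle. These differences come together in the 2 columns, and their effects were not tested apart. The labels of the MNase library of Replicate 2 at 10 min disagree with each other, since its description places it before release and its treatment after release. It was placed by its time label, and every chromatin value at 10 min rests in part on it.

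In budding yeast, G1 ends when the transcription factors SBF and MBF switch on genes for budding and DNA replication. Before that, as cells leave mitosis, transcription factors such as Swi5 enter the nucleus, and genes for cell separation, the cell wall and early G1 are turned on, some of them mainly in daughter cells. A culture released from pheromone enters its first S phase from an arrest, without a mitosis just behind it, whereas a second G1 follows directly on cytokinesis. These points are background and were not tested here.

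The values are the merged values of the authors, 1 per gene and time, so that no standard deviation and no test could be computed. Differences are given as 10 min minus 70 min. For RNA they are differences of log2(value + 1), and a gene was counted as higher when the difference reached 2-fold, which is 1 on this scale. Folds are ratios of value + 1. How many reads lie behind the value of a gene cannot be read from the tables. Of all RNA columns with a neighbour on either side, the 10 min and 70 min columns lay farthest from the mean of their neighbours, with a median deviation over genes of 0.16 and 0.097 on the log2 scale, against 0.040 to 0.069 at the other times. In this bulk material, a higher share of cells in a phase and more RNA per cell cannot be told apart.

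By the phase markers, the columns were closer at the G1/S boundary than in what preceded it. The 6 G1/S marker genes had a median level of 7.37 at 10 min and 7.21 at 70 min (log2(value + 1)). These were the highest levels of that median in the first and in the second cycle. Of the 6 genes, 5 had the higher value at 10 min, with a median difference of 0.28 and a largest difference of 0.98. The core histone genes, whose RNA accompanies DNA replication, stood at 10.1 and 9.91. The 5 M/G1 markers, by contrast, had a median level of 4.85 at 10 min and 7.71 at 70 min, and the 5 G2/M markers had 3.53 and 5.46. The second column thus combined a G1/S level close to that of the first with higher levels of genes of mitosis and its exit. The 4 pheromone markers FUS1, FIG1, AGA1 and PRM1 had a median level of 7.89 at 10 min and 7.06 at 70 min, below that of the arrest (9.66).

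**Figure D1:**
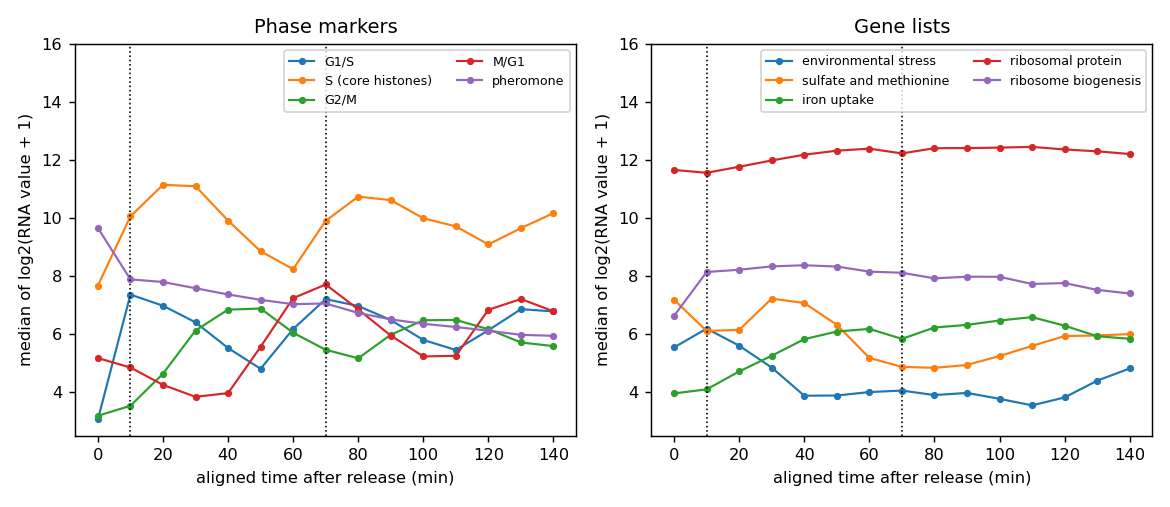
Median of log2(RNA value + 1) over the genes of each phase marker list (left) and of 5 other lists (right), against aligned time in minutes. Each point is a median over genes of the authors' merged values, and the dotted lines mark 10 and 70 min. The G1/S line stands at 7.37 and 7.21 at the dotted lines, and the M/G1 line at 4.85 and 7.71.

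Over all genes, 272 of 5590 (4.87%) were at least 2-fold higher at 10 min and 110 (1.97%) at least 2-fold higher at 70 min. At least 4-fold higher were 40 genes at 10 min and 27 at 70 min, and at least 8-fold higher were 5 and 10. The genes higher at 70 min were therefore fewer but held more of the steepest differences. The value was higher at 10 min in 62.5% of all genes. The difference had a median of 0.10 over all genes and ran from -5.25 to 3.99. When the columns were scaled to equal upper quartiles, the median moved to -0.057 and the counts to 186 and 155, so that the balance of the directions depends on the scaling. Single differences above 0 that are smaller than the gap between these medians change sign with that scaling, and those below 0 move further from 0.

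The same span of 60 min gave fewer differences in RNA later in the experiment. From 20 to 80 min, 103 genes were higher at the earlier and 56 at the later time, and from 40 to 100 min the counts were 34 and 29. Between 70 and 130 min, 34 genes were higher at 70 min and 56 at 130 min. The later pairs differ from the pair of 10 and 70 min in the time since release and in synchrony as well, and the effects of these were not tested. Of the 272 genes higher at 10 min, 256 had their highest value of all 15 times at 0 or 10 min. Of the 110 genes higher at 70 min, 85 had their lowest value at 0 or 10 min, and 67 had their highest between 50 and 70 min. Because both groups were chosen by their values at 10 and 70 min, such extremes are in part built in by the choice. The share over all genes is not given here, so these counts only describe the chosen genes.

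**Figure D2:**
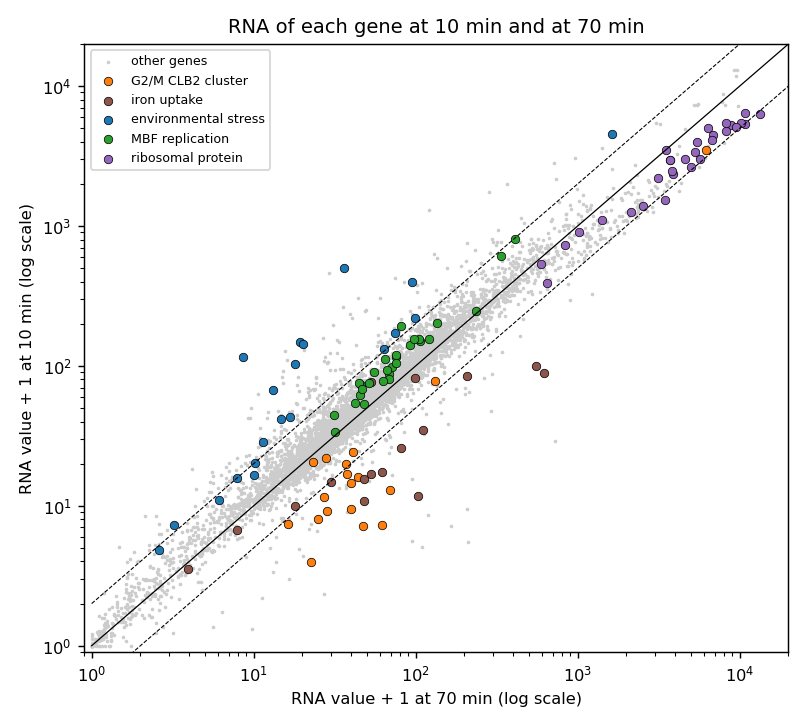
RNA value + 1 of each of the 5590 genes at 70 min (horizontal) and 10 min (vertical), both axes logarithmic, with 5 gene lists coloured. The solid line marks equal values and the dashed lines 2-fold. Of the genes outside the dashed lines, 272 lie above and 110 below, among them 12 of the 18 CLB2 cluster genes below.

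Single genes of cell separation were among those that differed most. EGT2, which encodes a cell wall endoglucanase of cell separation, had an RNA value of 4.51 at 10 min and 209 at 70 min, a 38.1-fold difference and the largest of all genes. It stood at 10.3 in the arrest and at 147 at 130 min, so that the first G1 was low and both later ones high. DSE4, a daughter-specific glucanase, had 6.21 and 163.5, and DSE3, a daughter-specific protein of the bud neck, had 7.55 and 118. ASH1, the repressor of mating-type switching in daughter cells, was at 24.4 and 82.5. CTS1, the chitinase that cuts the septum, stayed below 2-fold, with 183 at 10 min, 310 at 70 min and 426 in the arrest. CTS1 thus had a higher value in the arrest than at 10 or 70 min. By contrast, EGT2, DSE3 and DSE4 were far below their 70 min values both in the arrest and at 10 min.

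The cell wall and early G1 genes that are targets of Swi5 or peak with its targets behaved likewise, with exceptions. Of 13 listed genes, 7 were at least 2-fold higher at 70 min and 1 at 10 min, and the median difference was -1.34. With the 80 min column in place of 70 min, the median was -0.53. PIR1, an abundant protein of the cell wall, had 27.9 at 10 min and 727.5 at 70 min, and PCL9, a cyclin of the Pho85 kinase, had 4.11 and 109. SIC1, the inhibitor of the B-type cyclin kinases that holds cells in G1, had 31.7 and 111. PIR3 went the other way. It encodes a cell wall protein of the PIR1 family and lies next to PIR1 in divergent orientation, with 1503 bases between the transcription starts, and had 61.7 at 10 min and 9.60 at 70 min. CIS3 and HSP150, further members of that family, differed by 0.32 and -0.15.

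HO, the endonuclease of mating-type switching, is listed with the SBF genes and belonged with the former genes by its values, at 8.45 at 10 min, 205 at 70 min and 127 at 130 min. It is known to be expressed in G1 of mother cells that have divided before, and both Swi5 and SBF act on its promoter. The other SBF gene that was at least 2-fold higher at 70 min was BUD9, a marker of bud site choice in daughter cells, with 13.1 and 36.3. Both go against the majority of that list.

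The promoters of EGT2, PCL9 and PIR1 are shown because they carry the letters ACCAGC that Swi5 is known to bind, here searched on both strands in the 300 bases before each start site of the tables. They are taken from the R64 genome, 5′ to 3′ on the strand of the gene, with matches in capitals (GCTGGT where the match is on the other strand). That of EGT2 spans chrXIV:23718-24017 (plus strand), that of PCL9 chrIV:137897-138196 (plus strand) and that of PIR1 chrXI:142898-143197 (minus strand).
EGT2: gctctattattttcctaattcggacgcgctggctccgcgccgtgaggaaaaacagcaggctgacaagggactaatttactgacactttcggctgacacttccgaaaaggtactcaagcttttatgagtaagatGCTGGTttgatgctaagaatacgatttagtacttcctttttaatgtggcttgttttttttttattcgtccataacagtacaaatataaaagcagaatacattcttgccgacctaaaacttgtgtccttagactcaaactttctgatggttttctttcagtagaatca
PCL9: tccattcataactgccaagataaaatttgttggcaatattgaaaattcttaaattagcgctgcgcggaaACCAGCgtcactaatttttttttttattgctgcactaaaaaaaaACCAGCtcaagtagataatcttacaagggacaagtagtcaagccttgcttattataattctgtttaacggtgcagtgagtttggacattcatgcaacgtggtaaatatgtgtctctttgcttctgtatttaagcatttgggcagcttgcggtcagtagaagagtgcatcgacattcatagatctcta
PIR1: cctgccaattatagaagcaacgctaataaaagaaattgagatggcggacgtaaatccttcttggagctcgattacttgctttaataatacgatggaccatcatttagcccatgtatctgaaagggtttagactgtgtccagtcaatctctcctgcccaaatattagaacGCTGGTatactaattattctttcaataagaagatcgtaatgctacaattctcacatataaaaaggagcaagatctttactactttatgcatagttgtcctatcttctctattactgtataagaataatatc
The first base of the match lies 167 bases before the start of EGT2, 231 and 187 before that of PCL9, and 131 before that of PIR1. These letters were present in 389 of all 5590 promoters (6.96%) and in 4 of the 13 genes of the Swi5 list. They were found in 12 of the 110 promoters of genes higher at 70 min (10.9%) and in 12 of the 272 higher at 10 min (4.41%). A match is a description of the sequence and not a binding site.

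Genes of mitosis and cytokinesis were also higher in the second G1. Of 18 genes of the CLB2 cluster, which is transcribed in G2 and M, 12 were at least 2-fold higher at 70 min and none at 10 min, with a median of -1.35. All 18 had the higher value at 70 min. CLB1, a mitotic cyclin, had 6.29 at 10 min and 61.0 at 70 min, KIN3, a kinase of the NIMA family, 6.17 and 46.4, and SWI5 itself 2.97 and 21.6. CLB2 had 12.1 and 68.1, and the median level of the cluster at 70 min (5.27) was below its level at 50 min (6.32).
Among 17 genes of cytokinesis and the bud neck, a list drawn up after the values were seen, 8 were at least 2-fold higher at 70 min and none at 10 min. AIM44, a protein of the bud neck, had 4.59 and 94.4, HOF1, a component of the contractile ring, 1.33 and 26.3, and CHS2, the chitin synthase of the primary septum, 8.54 and 38.8. The septin genes CDC3, CDC10, CDC11, CDC12 and SHS1 differed by 0.10 to 0.39, so that ring regulators differed and septins did not reach 2-fold. YMR030W-A, also among the 15 largest differences, lies 5 bases from the coding region of HOF1 on the same strand, and reads of the pair may not have been separable. SFG1, a regulator of growth form and cell separation, had 14.6 and 94.5.

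Among the lists outside the cell cycle, iron uptake had the lowest median. Of 16 genes, 11 were at least 2-fold higher at 70 min and none at 10 min, with a median of -1.63, and 15 of 16 had the higher value at 70 min. FIT2, a cell wall mannoprotein that retains iron carriers, had 10.7 at 10 min and 103 at 70 min. FET3, the multicopper oxidase of high-affinity uptake, had 88.5 and 622, its permease partner FTR1 84.1 and 205, and the surface reductase FRE1 98.9 and 550. The siderophore transporters SIT1, ARN1, ARN2 and ENB1 differed by -1.66, -1.65, -1.61 and -1.83. HMX1, the haem oxygenase that recycles iron, was the member with the higher value at 10 min, at 76.3 against 52.2. The list had a median level of 3.96 in the arrest and 4.10 at 10 min, against 6.18 at 60 min and 6.59 at 110 min, so that it stayed up through the second cycle and did not return with G1. In a copper list drawn up afterwards, the transporters CTR1 (162 and 442) and CTR3 (7.0 and 15.5) and the reductase FRE7 (44.0 and 115.5) were at least 2-fold higher at 70 min, 3 of 8 genes.

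The promoters of FET3 (chrXIII:388468-388767, plus strand) and FIT2 (chrXV:1059207-1059506, plus strand) are shown with the letters TGCACCC, the core bound by the iron regulator Aft1, in capitals on either strand.
FET3: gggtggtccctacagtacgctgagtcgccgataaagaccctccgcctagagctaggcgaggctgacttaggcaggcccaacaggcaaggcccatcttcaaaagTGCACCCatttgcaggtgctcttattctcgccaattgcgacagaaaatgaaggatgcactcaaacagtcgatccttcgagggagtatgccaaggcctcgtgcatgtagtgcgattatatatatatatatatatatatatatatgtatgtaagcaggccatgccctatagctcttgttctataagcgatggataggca
FIT2: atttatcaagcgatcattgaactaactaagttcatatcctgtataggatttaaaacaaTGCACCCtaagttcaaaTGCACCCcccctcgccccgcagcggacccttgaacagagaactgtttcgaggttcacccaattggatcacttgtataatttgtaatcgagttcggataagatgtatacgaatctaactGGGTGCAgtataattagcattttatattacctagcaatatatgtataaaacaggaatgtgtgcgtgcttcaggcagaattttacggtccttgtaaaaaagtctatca
FET3 has a match 197 bases before its start, and FIT2 has matches 242, 225 and 107 bases before. The letters were present in 75 of 5590 promoters (1.34%), in 12 of the 16 iron genes, in 12 of the 110 promoters of genes higher at 70 min (10.9%) and in 2 of the 272 higher at 10 min (0.735%).

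Of 15 genes of hexose transport and phosphorylation, HXT1 and HXT3 were at least 2-fold higher at 70 min. HXT1, the low-affinity glucose transporter induced by high glucose, had 46.3 at 10 min and 289 at 70 min, and HXT3 had 452 and 908. Higher at 10 min were the glucokinase GLK1 (218 and 39.3), the hexokinase HXK1 (147 and 57.9) and the high-affinity transporter HXT7 (45.7 and 11.2), whose coding sequence is nearly identical to that of HXT6 and whose value is therefore uncertain. The list thus split by member, and its median of -0.12 does not describe it.

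Ribosomal protein genes were higher at 70 min as a group, by less than 2-fold for most. All 30 listed genes had the higher value at 70 min, with a median of -0.67, and 3 reached 2-fold. RPS31, which encodes a ubiquitin fusion, had 6351 and 13335. Of all 136 genes with the symbols of cytosolic ribosomal proteins, 133 were higher at 70 min, 15 of them at least 2-fold, with a median of -0.73. Together they made up 25.7% of the summed RNA value at 10 min and 39.4% at 70 min, against 25.3% in the arrest and 34.2% at 130 min. Many of them are nearly identical pairs, whose single values are uncertain. The 33 ribosome biogenesis genes, the factors that build ribosomes, differed little, from -0.50 to 0.12 with none at 2-fold. Their median level was 6.63 in the arrest, 8.14 at 10 min and 8.12 at 70 min. They were thus at 10 min near their level at 70 min, when the 30 ribosomal protein genes were still near their arrest level (11.7 in the arrest, 11.6 at 10 min and 12.2 at 70 min). At 130 min the ribosome biogenesis genes had fallen to 7.53.

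Among the genes higher at 10 min were many of stress and chaperones, although 43 of the 272 belong to any of the lists other than those drawn up after the values were seen. Of 21 environmental stress genes in the table, 16 were at least 2-fold higher at 10 min and none at 70 min. All 21 had the higher value at 10 min, and the median was 1.33. HSP12, a membrane-associated stress protein, had 498 at 10 min and 35.3 at 70 min. GPH1, glycogen phosphorylase, had 116 and 7.55, and the small chaperone HSP26 had 147 and 18.3. SPI1, a cell wall protein, had 141 and 19.3. These 4 genes were also above their arrest values at 10 min (94.3 for HSP12, 45.7 for GPH1, 90.3 for HSP26 and 31.6 for SPI1), and at 130 min they were at 27.3, 10.3, 14.5 and 13.8. The median level of the list was 6.19 at 10 min and 4.06 at 70 min, against 5.55 in the arrest.

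The promoter of HSP12 (chrVI:106898-107197, plus strand) is shown with the letters AGGGG of the stress response element, which Msn2 and Msn4 are known to bind, in capitals (CCCCT on the other strand).
HSP12: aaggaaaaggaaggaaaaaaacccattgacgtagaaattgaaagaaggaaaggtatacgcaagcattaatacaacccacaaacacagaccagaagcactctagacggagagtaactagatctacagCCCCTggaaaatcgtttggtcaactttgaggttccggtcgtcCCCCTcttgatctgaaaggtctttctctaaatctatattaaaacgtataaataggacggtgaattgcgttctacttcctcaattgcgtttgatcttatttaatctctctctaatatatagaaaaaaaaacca
The matches begin 174 and 132 bases before the start. AGGGG was present in 1295 of 5590 promoters (23.2%), in 17 of the 21 stress genes, in 145 of the 272 promoters of genes higher at 10 min (53.3%) and in 14 of the 110 higher at 70 min (12.7%). The promoter window of GPH1 held no match.

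The largest difference toward 10 min was that of ALD4, the mitochondrial aldehyde dehydrogenase, with 462 at 10 min and 28.1 at 70 min. It had 156 in the arrest and 46.1 at 130 min, so that it was highest right after release. PYC1, pyruvate carboxylase, had 305 and 43.2, and ARO10, a decarboxylase of amino acid breakdown, 197 and 29.8. The glyceraldehyde-3-phosphate dehydrogenase gene TDH1 had 1310 and 119 and the enolase gene ENO1 had 2002 and 367, and both have close paralogs, so that their values are uncertain. The other 13 of 15 glycolysis genes stayed below 2-fold (differences of 0.17 to 0.85). In 13 of the 15 genes 70 min was the lowest of all times, and the list took 8.27% of the summed RNA value at 10 min and 5.36% at 70 min, while 60 and 80 min had 6.70% and 6.96%. The 70 min column was thus a low point for these genes relative to both of its neighbours. FMP46 (126.5 and 14.6), RTC3 (263 and 34.7), MSC1 (91.1 and 14.1) and the genes YNR034W-A, YNL208W and YML131W, which the tables give without a name, completed the largest 15 together with the chaperone SSA4.

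All 18 chaperone genes had the higher value at 10 min, 6 of them at least 2-fold, with a median of 0.77. SSA4, an inducible Hsp70, had 129 and 19.5, SSA1, another Hsp70 with a close copy in SSA2, 627.5 and 129, and HSP82, an Hsp90, 513 and 190. HSP82, HSP104 and SSA1 were above these values in the arrest (978, 586 and 994), whereas SSA4 had 56.1 there. The members thus differed in whether 10 min was a maximum or a step on the way down. As a list, the chaperone genes did not stay low through the later cycle. Their median level, 8.14 in the 10 min column, was lowest around 60 and 70 min (7.13 and 7.18). By 130 min it had climbed back to 8.08. Measured against 130 min, the median difference was 0.37, so that the gap of 0.77 rests in part on a low level around 70 min.

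Further lists were drawn up after the values were seen and are therefore only descriptive. The glycogen and trehalose list shares genes with the environmental stress list, GPH1 among them, so that its count is not separate from that of the stress list. Of 17 genes of glycogen and trehalose metabolism, 7 were at least 2-fold higher at 10 min and none at 70 min, among them the phosphoglucomutase PGM2 (71.5 and 17.5), the branching enzyme GLC3 (34.9 and 9.99) and the debranching enzyme GDB1 (46.5 and 13.2). Enzymes of synthesis and of breakdown were both among them. Of 24 genes of the oxidative stress defence, 13 were higher at 10 min and none at 70 min. The mitochondrial peroxiredoxin PRX1 had 153 and 31.5, its cytosolic relative AHP1 3037 and 965, and the thioredoxin TRX2 807 and 295. TRX1, the other cytosolic thioredoxin, had 654 and 817, opposite to TRX2. Of 10 vacuolar genes, 6 were higher at 10 min, among them the proteases PRB1 (393.5 and 109) and PEP4 (671 and 231).

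Sulfate assimilation and methionine genes were higher at 10 min, 7 of 19 at least 2-fold, none at 70 min, with a median of 0.81. MET17, the sulfhydrylase that makes homocysteine, had 564.4 and 203, the methionine synthase MET6 771 and 301, and the ATP sulfurylase MET3 68.2 and 28.3. MUP1, the methionine permease, had the opposite order (139 and 167). The list had a median level of 6.11 at 10 min and stayed low from 70 to 90 min (4.87, 4.84 and 4.94). At 130 min it was at 5.95, with MET17 at 548 and MET6 at 837, and the median difference against 130 min was -0.12. The promoter of MET3 (chrX:455737-456036, plus strand) is shown for its pair of CACGTG letters, the core bound by Cbf1, in capitals.
MET3: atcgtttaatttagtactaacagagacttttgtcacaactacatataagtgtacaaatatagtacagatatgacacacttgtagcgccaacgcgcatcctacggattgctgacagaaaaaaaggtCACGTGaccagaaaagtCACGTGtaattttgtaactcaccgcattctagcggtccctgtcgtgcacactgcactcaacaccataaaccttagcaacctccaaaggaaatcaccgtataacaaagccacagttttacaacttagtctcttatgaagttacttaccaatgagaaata
They begin 175 and 158 bases before the start. CACGTG was present in 241 of 5590 promoters (4.31%), in 11 of the 19 genes of the list, in 23 of the 272 promoters of genes higher at 10 min (8.46%) and in 1 of the 110 higher at 70 min (0.909%).

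**Figure D3:**
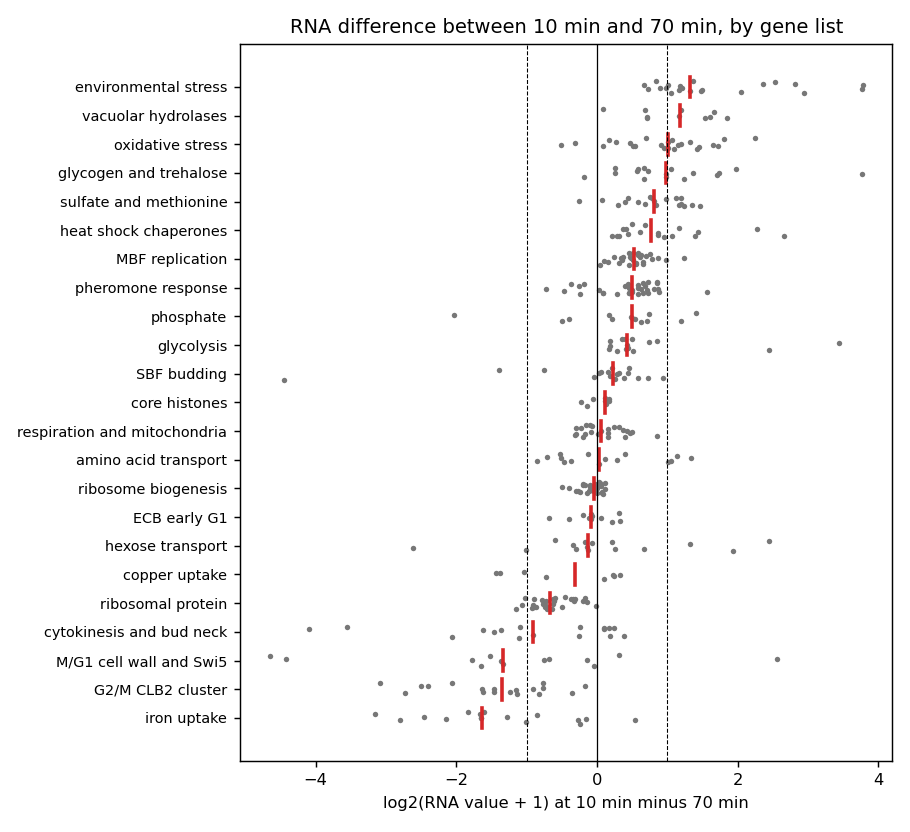
Difference of log2(RNA value + 1), 10 min minus 70 min, for the members of each gene list, sorted by median. Each grey point is a gene, red bars are medians and dashed lines mark 2-fold. The iron uptake list has the lowest median (-1.63) and the environmental stress list the highest (1.33).

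Most genes of the G1/S transition differed by less than 2-fold. Of the 28 MBF genes of replication and repair, all had the higher value at 10 min, with a median of 0.53. The smallest of these differences, such as those of RFA3 (0.05) and NRM1 (0.09), are within the gap between scalings. RNR1, the large subunit of ribonucleotide reductase, was just below 2-fold (806 and 408, a difference of 0.98), and POL30, the sliding clamp, had 612 and 334. Of the 18 SBF genes, none was at least 2-fold higher at 10 min, and the G1 cyclins CLN1 (138 and 142.5) and CLN2 (194 and 163) were close. TOS6, a cell wall protein, differed most toward 10 min (642 and 334). The 11 early G1 genes with ECB elements, among them CLN3 (57.4 and 66.3), SWI4 (60.4 and 51.9) and the MCM2 to MCM7 helicase genes, ran from -0.68 to 0.33. CDC6, the helicase loader, marked the lower end, with 3.61 in the arrest, 27.2 at 10 min and 44.3 at 70 min. The 8 core histone genes lay between -0.22 and 0.18. Against the neighbouring columns this match was lost, since their median difference was -0.78 with 80 min in place of 70 min.

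Pheromone response genes were at 10 min below their arrest level and mostly above their level at 70 min. Of 33 genes, 27 had the higher value at 10 min (62.5% of all genes did), KSS1, GPA1 and SAG1 by less than the gap between scalings (0.02, 0.08 and 0.09), with a median of 0.50, and 1, the a-factor gene MFA1, reached 2-fold, at 6797 in the arrest, 2182 at 10 min and 737 at 70 min. FUS1, a cell fusion protein, had 106 at 10 min and 67.0 at 70 min, between 516 in the arrest and 34.5 at 130 min. MFA2, the other a-factor gene, was higher at 70 min (2373 and 3939), as were FAR1 (67.9 and 94.2) and the a-factor exporter STE6 (90.5 and 117). With 130 min in place of 70 min, the median of the list was 1.01. Phosphate genes split, since the transporters PHO84 (1058 and 464) and PHO89 (15.6 and 5.29) were higher at 10 min and the acid phosphatase PHO3 (37.4 and 156) at 70 min, with no other of the 13 genes at 2-fold. Among 15 genes of amino acid and peptide transport, GAP1 (264 and 127), MEP2 (66.1 and 29.4), DIP5 (182 and 90.0) and PUT4 (16.7 and 6.02) were at least 2-fold higher at 10 min, with none at 70 min. None of 23 respiration genes reached 2-fold.

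Chromatin was measured in the same genes with 3 scores. The entropy measures how disorganized the nucleosome signal of the gene body is, with low values for well-positioned nucleosomes. The nucleosome score measures how closely the fragments of the gene body match a model nucleosome, and the promoter subnucleosome score summarizes fragments smaller than a nucleosome and is not described further in the sources used here. Its sum over genes was 151 at 10 min and 143 at 70 min, so both scores are given as log2 ratios centred on the median of all genes. The limits counted as higher were 0.1 for entropy, 0.25 for the nucleosome score and 0.5 for the promoter score.

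The median entropy of all genes was 5.79 at 10 min and 5.77 at 70 min, with 350 genes (6.26%) past the limit at 10 min and 234 (4.19%) at 70 min. With the entropy difference centred on its median, the counts were 286 and 293, so that the balance of the entropy directions depends on the centring. The nucleosome score was past its limit toward 10 min in 170 genes (3.04%) and toward 70 min in 290 (5.19%). The promoter score was past it in 38 (0.68%) and 53 (0.948%), and without centring in 108 and 32, so that the balance of its directions depends on the centring. Of the pairs of times 60 min apart, this one had the most genes past the nucleosome limit (460). The others ran from 45 (40 and 100 min) to 258 (20 and 80 min). It also had the most genes past the entropy limit in each direction. The next were 228 at the earlier and 180 at the later time (20 and 80 min). For the promoter score the other pairs ran from 13 (40 and 100 min) to 233 (70 and 130 min), against 91 here. Most genes nonetheless stayed within the limits between the columns, in chromatin and in RNA.

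In the genes that differed in RNA, the medians of promoter score and entropy lay in the direction of the RNA, while most single genes stayed within the limits. Of the 110 genes with RNA higher at 70 min, 30 were past the promoter limit at 70 min and 1 at 10 min, and the median promoter ratio was -0.28. Their median entropy difference was -0.046, with 30 genes past the limit at 70 min, and their median nucleosome ratio was 0.091, with 21 past the limit at 10 min. In the median, higher RNA at 70 min thus went with a higher promoter score, a less ordered gene body and a lower nucleosome score at 70 min. In the 272 genes with RNA higher at 10 min the signs were opposite and the sizes smaller, with medians of 0.074 for the promoter score, 0.024 for entropy and -0.086 for the nucleosome score. Entropy was higher at 10 min in 61.4% of them, against 55.7% of all genes, with 38 past the limit at 10 min and 12 at 70 min. Of these genes, 8 were past the promoter limit at 10 min and none at 70 min. In the other 5208 genes the medians were -0.00073, 0.0078 and 0.0035. Across all 5590 genes, Spearman's rho of the RNA difference was 0.21 with the promoter ratio, 0.14 with the entropy difference and -0.27 with the nucleosome ratio. These describe genes of the same few libraries, which are not independent replicates.

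**Figure D4:**
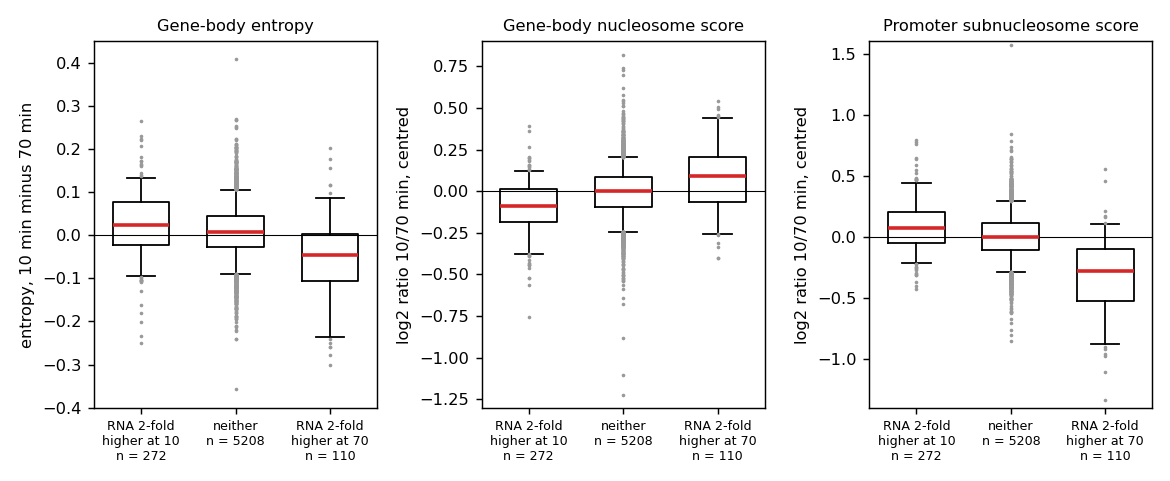
Differences between 10 and 70 min in gene-body entropy, nucleosome score and promoter subnucleosome score for genes grouped by their RNA difference. Boxes give quartiles with the median in red, whiskers the 5th and 95th percentiles and dots the genes beyond. The promoter medians are 0.074, -0.00073 and -0.28 from left to right.

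Of the 15 genes with the largest RNA difference toward 70 min, 10 were among the 100 genes with the largest promoter difference in the same direction (PIR1, HO, PCL9, AIM44, DSE3, FIT2, CLB1, KIN3, HXT1 and SFG1) and 6 among the 100 of entropy (EGT2, PCL9, AIM44, DSE3, HOF1 and FIT2). PIR1 had the largest promoter difference toward 70 min of the genes over the lowest 10% by nucleosome score, with a score of 0.0136 at 10 min and 0.0321 at 70 min, a centred ratio of -1.33. HXT1 had 0.0173 and 0.0314, and CLB1 0.0152 and 0.0268. EGT2 differed in the gene body more than in the promoter, with an entropy of 5.85 at 10 min and 6.04 at 70 min and a promoter ratio of -0.26. Of the 15 largest toward 10 min, by contrast, 1 (FMP46) was in the first 100 of the promoter score and 1 (YML131W) in that of entropy. ALD4, HSP12 and GPH1, the steepest of them, had promoter ratios of -0.09, -0.08 and -0.04 and entropy differences of 0.09, -0.05 and -0.05. The stress list as a whole had 1 of 21 promoters past the limit at 10 min, XBP1, and a median of 0.019.

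The lists differed in how far chromatin followed RNA. In the iron list 6 of 16 promoters were past the limit at 70 min, with a median of -0.44. The promoter of FRE1 had 0.0194 and 0.0359, and that of CRR1, which encodes a spore wall protein and lies 441 bases away in divergent orientation, 0.0189 and 0.0381. The scores of this pair may rest on the same fragments, and the RNA of CRR1 was 6.36 and 21.5. The 136 ribosomal protein genes had a promoter median of -0.12, with none past the limit. Entropy was higher at 10 min in 86 of them (55.7% of all genes). Of the 136, 12 were past the entropy limit at 10 min (6.26% of all genes) and 3 at 70 min (4.19%). Among the 30 listed ribosomal protein genes, 15 had the higher entropy at 10 min, with a median of -0.00045. Entropy thus had no clear direction in these genes, while their RNA was higher at 70 min. In the stress list 9 of 21 genes had the higher entropy at 10 min, with 2 past the limit at 10 min and 1 at 70 min. Its median entropy difference was -0.015. The nucleosome ratio was above 0 in 7 of the 21 stress genes, with a median of -0.075. Of the 18 CLB2 cluster genes, 16 had the higher promoter score at 70 min, and SIC1 (ratio -0.83), NIS1 (-0.88) and BUD9 (-0.76) were among the larger differences of the Swi5 and SBF lists.

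**Figure D5:**
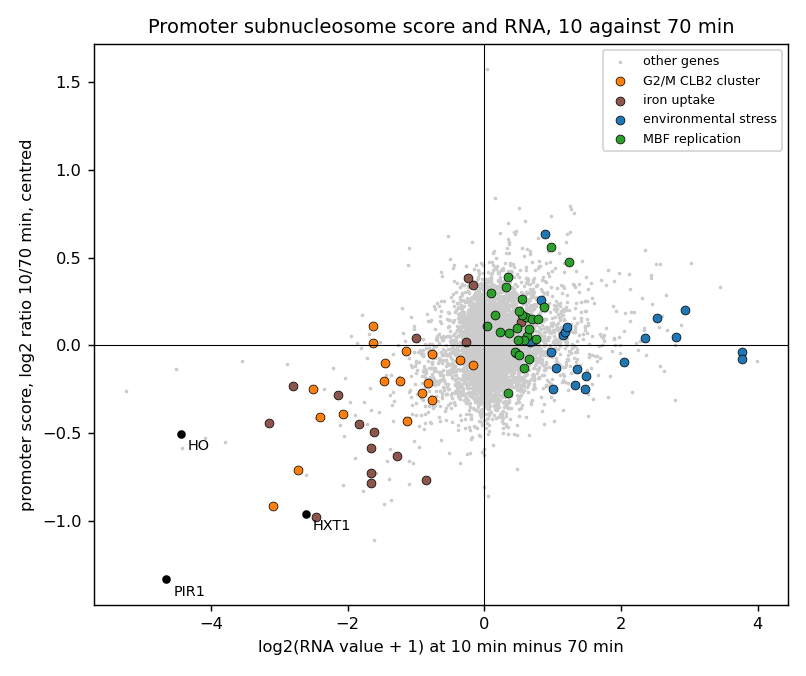
Centred log2 ratio of the promoter subnucleosome score (vertical) against the difference of log2(RNA value + 1) (horizontal), both 10 against 70 min, for 5590 genes with 4 lists coloured. PIR1, HXT1 and HO are marked in black. The CLB2 cluster and iron genes spread to the lower left, where PIR1 stands at -1.33, while the stress genes lie on the right near 0.

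Among the same genes over the lowest 10% by nucleosome score, the 4 largest nucleosome differences toward 70 min were those of TOS6, YJL171C, WHI5 and SCW10. TOS6 had 0.0233 at 10 min and 0.0432 at 70 min (-0.88), the cell wall genes YJL171C and SCW10 had ratios of -0.68 and -0.59, and WHI5, the repressor of SBF, had -0.64. Of the 18 SBF genes, 17 had a ratio below 0, with 6 past the limit toward 70 min and 1 past it toward 10 min. Other lists leaned the same way, while 50% of all genes are above 0 by the centring. A ratio above 0 was held by 6 of 28 MBF genes, 2 of 8 core histone genes and 8 of 33 pheromone response genes. It was also held by 3 of 13 phosphate genes and 7 of 21 stress genes, so that the lean was not particular to genes of G1/S. The M/G1 and Swi5 list did not follow this, with 9 of 13 genes above 0 and a median of 0.027. Neither did the ribosome biogenesis list, with 25 of 33 above 0. The entropy of SIC1 (5.40 and 5.70), CHS2 (5.74 and 5.99) and TIR3, a cell wall mannoprotein gene (-0.28), was higher at 70 min, where their RNA was also higher. SWI1, a subunit of the SWI/SNF remodeler, and SCH9, a nutrient-sensing kinase, had higher entropy at 10 min (differences of 0.27 and 0.25) with RNA values of 23.3 and 23.1 and of 105 and 86.2. PRM3, needed for nuclear fusion in mating, had an entropy difference of 0.27 with RNA of 226 and 125. Differences in gene-body order thus occurred both with and without a difference in RNA.

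YLR049C had the largest entropy difference toward 70 min (-0.36), with RNA of 46.3 and 79.9. YER078W-A, YBR296C-A and CRR1 had the largest nucleosome ratios toward 10 min of these genes (0.62, 0.55 and 0.54), and the RNA of the former pair was at most 1.63. SRO7, which acts in exocytosis, had 0.51, with RNA of 23.7 and 25. The largest promoter ratio toward 10 min was that of RRT15 (1.57), which lies in the ribosomal DNA, whose reads the authors removed, and it cannot be interpreted. It was followed by YMR175W-A (0.84), DIG2 (0.79), a repressor of mating genes with RNA of 109 and 45.2, and SNO1 (0.78), a gene of vitamin B6 metabolism with RNA of 2.98 and 0.65. These genes share no list, and single genes have no replicate check here.

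Entropy was also read by distance from the nearest of 352 annotated replication origins, since DNA replication starts there. The 1386 genes within 5 kb of an origin had a median entropy of 5.81 at 10 min and 5.79 at 70 min, and a median difference of 0.011. The 5 bins from 5 to 30 kb had median differences of 0.0041 to 0.010, with quartiles on both sides of 0 in every bin. The median difference was thus slightly larger within 5 kb of an origin than in the other bins, by less than the spread between quartiles. The 68 promoters with a start within 250 bases of an origin midpoint had a median promoter ratio of 0.17, with 54 of 68 higher at 10 min, against -0.0011 in the other 5522. Fragments of promoter factors and of origin-bound proteins cannot be told apart in this score at such starts.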

How the data were processed

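RNA and MNase-seq values of 5590 genes at 15 aligned time points were taken from 4 tables deposited by the authors, in which 2 replicates are merged per time point. Reads had been aligned with Bowtie 0.12.7 to the R64 (sacCer3) genome and MNase fragments subsampled to equal numbers. All values deposited by the authors were treated as a score. The RNA values are named TPM, but the columns summed to 949828 at 10 min and 1041027 at 70 min over the listed genes, with 19 and 15 zeros. Entropy, nucleosome and promoter scores were used as deposited. No p-value was computed, because each time has 1 merged column.

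RNA was compared as log2(value + 1). The 10 and 70 min columns were compared by counts past fixed limits and by list medians. Of the genes, 5587 matched the R64 annotation by locus tag, 5579 of them with the same start and end. Promoters are the 300 bases before the start site that the tables give. The genes named are the 15 largest RNA differences in each direction (mean value of at least 5 over the 15 times), list members past 2-fold (up to 5 per direction) or against their list, and the 4 largest differences in each direction of each chromatin score, among genes over the lowest 10% by nucleosome score. Further genes were named after their values were seen. The comparison and the lists were chosen with earlier results of these data known. PHO11, PHO12 and ALD3 of the lists are not analysed here. A few items that the rule would name are not reported here. Python 3.11.15, pandas 2.3.3, numpy 2.4.6 and matplotlib 3.10.9 were used, and the counting was tested on simulated data. All columns could be assigned to a time.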

Additional observations from a re-analysis of the deposited data

How the results depend on the processing

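No paired analysis was possible because a time point has 1 merged column, and no replicate could be left out either. Of 264 alternative values, 230 stayed within the tolerance, which was 1.5 times for counts, 0.5 on the log2 scale for list medians and the spread over genes for chromatin medians. Among these, 10 list medians changed sign, in 9 lists or marker lists whose reported median was at most 0.42 in size, for example glycolysis (-0.039 against 130 min) and the core histones (-0.053 with equal upper quartiles). With a pseudocount of 10, 156 genes were higher in RNA at 10 min and 73 at 70 min, in place of 272 and 110. Against 130 min, the list medians became 1.01 for pheromone response, -0.12 (reversed from 0.81) for sulfate and methionine, 0.51 for ribosome biogenesis, 0.37 for glycogen and trehalose and 0.66 for vacuolar hydrolases, and against 80 min, an alternative chosen after the data were seen, that of the M/G1 and Swi5 list became -0.53. With the mean of 60 and 70 min as the second G1, 526 genes were past the entropy limit at 10 min, 268 past the nucleosome limit at 10 min, and 86 and 82 past the promoter limit at 10 and 70 min. With 130 min, the counts were 532 and 410 for entropy, 386 and 553 for the nucleosome score and 294 and 319 for the promoter score. Promoter counts also depended on their treatment. Without centring they were 108 and 32, with a pseudocount equal to the median score 1 and 3, and without the lowest 10% of promoters 23 were past the limit at 10 min. The chromatin medians of the genes that differed in RNA and the entropy difference by origin distance kept their direction under the alternatives run. The cause of these changes was not tested.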
